A study of Mus musculus with 9 samples.

Results

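RNA-Seq libraries of sorted lung fibroblasts also held transcripts associated with the lung epithelium, and 10 of these were followed across the 9 libraries. They were taken by gene name from the 43346 genes of the deposited table, and they were chosen with earlier results of these data known. Ager, Mal2, Hopx, and Aqp5 are associated with alveolar type 1 cells, Sftpc, Sftpb, and Sftpa1 with alveolar type 2 cells, and Scgb1a1 with secretory cells of the airway, while Epcam and Cldn18 are shared by several epithelial cell types.

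The mice were male Col1a1-GFP transgenics on an FVB background, in which a collagen I promoter drives green fluorescent protein, so that the reporter marks cells with an active collagen I gene rather than a single fibroblast type. All were aged (72 weeks in the sample labels, 18 months in the protocol), and lungs were taken 30 days after a single intratracheal dose of saline (aged sham, n = 4) or of bleomycin (aged bleo, n = 5), a DNA-damaging drug used to produce lung fibrosis. GFP+ cells negative for CD45 (leukocytes), CD31 (endothelium), and EpCAM (epithelium) were sorted into lysis buffer, and poly-A RNA was sequenced to between 49921946 and 68260600 counts per library. Individual animals are not named in the labels, so p-values measure the spread between these libraries.

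The alveolar surface is lined by thin type 1 cells, across which gas exchange takes place, and by cuboidal type 2 cells, which make and secrete pulmonary surfactant. Type 2 cells also serve as progenitors of type 1 cells after injury, and bleomycin is known to damage the alveolar epithelium. Neither cell type is a main source of collagen I, and both carry EpCAM on their surface to differing extents, the antigen by which epithelial cells were removed from the sort.

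The transcripts were scarce but were found in every library. Summed over the 10 genes, raw counts divided by library totals came to 20.5 to 126.4 CPM in aged sham libraries and 21.8 to 63.6 CPM in aged bleo libraries. Epcam itself was detected at 22 to 88 counts per library, above the 3 counts that a count of 0 allows (0.0439 to 0.0601 CPM over the libraries). The other antigens of the sort were also detected, with 1647 to 13428 counts of Ptprc, the gene of CD45, and 133 to 468 counts of Pecam1, the gene of CD31. In bulk libraries fewer cells of a type and less RNA per cell cannot be told apart, and this applies to every level below. The cells that the 10 transcripts came from were not tested. Levels are given as CPM, the counts scaled to library totals after TMM normalization. Comparisons between genes use the deposited FPKM values, which are scaled to gene length, except where CPM is named. Gene positions are those of the deposited table (GRCm38), and all 10 genes are protein coding.

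All 10 genes passed the filter on low counts (an average of at least 25 counts per library). In edgeR's quasi-likelihood test with thresholds of 0.10 on the FDR and 1.5 on the fold change, 4 of the 10 genes had a lower level after bleomycin, against 11.5% of the 16877 genes tested. None of the 10 was higher, against 12.3% of the genes tested, and none had a higher level at an unadjusted p under 0.05 in edgeR. DESeq2 also called 0 higher, and limma-trend on log2 CPM called 1, Aqp5. Sftpc, Sftpb, and Sftpa1 were higher once the aged sham 3 library was left out, when 11.4% of 16895 genes were called higher. The 4 lower genes were Ager, Mal2, Hopx, and Cldn18, and in each of them all 5 aged bleo libraries lay below all 4 aged sham libraries. Over all genes tested, 16.1% showed that order and 16.1% the opposite order, which none of the 10 genes showed. The median log2 fold change was -2.33 over the 4 type 1 genes and 0.29 over the 3 type 2 genes, beside 0.01 over all genes tested.

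**Figure D1:**
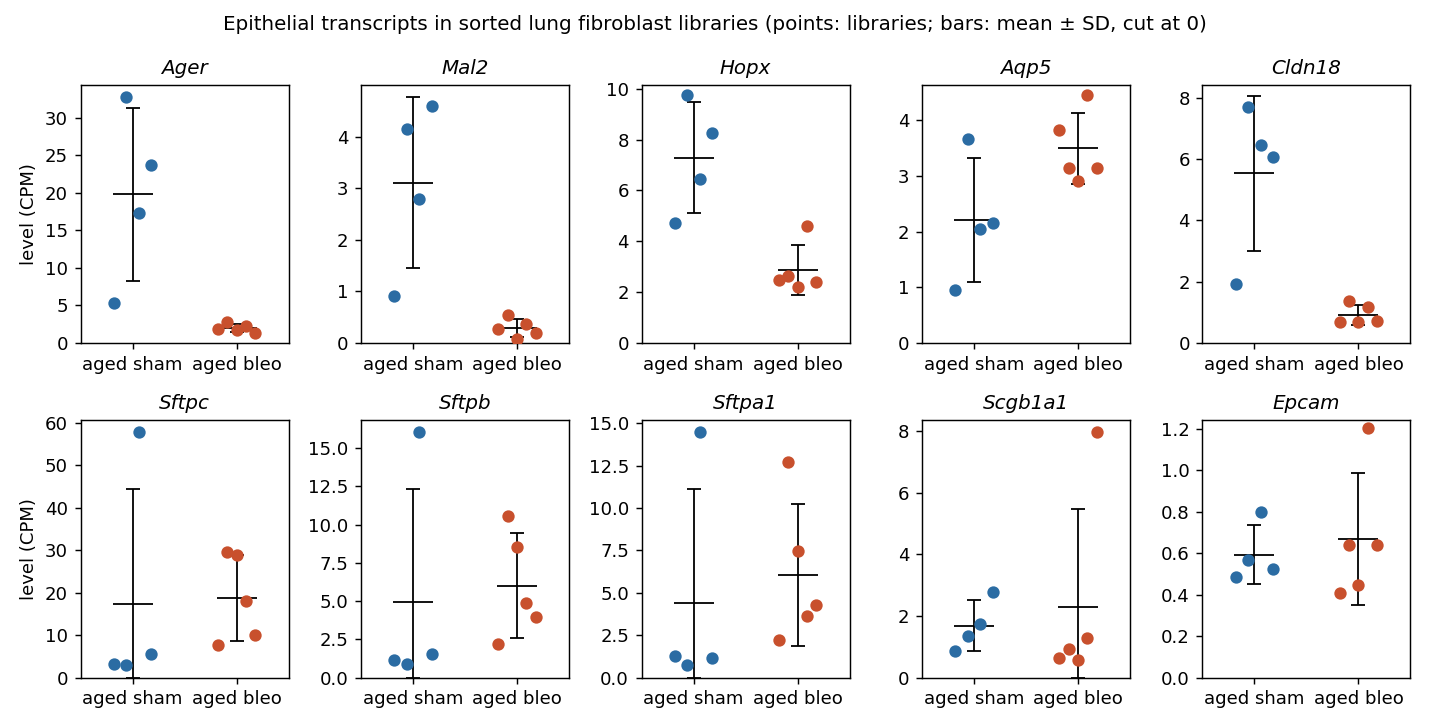
Level of each of the 10 epithelial transcripts (CPM, linear axes starting at 0) in 4 aged sham and 5 aged bleo libraries, 1 point per library, with the mean and SD as bars (the lower bar ends at 0 where the SD exceeds the mean). Ager, Mal2, Hopx, and Cldn18 did not overlap between the groups, and 1 aged sham library lay far above the others of its group in Sftpc (57.9 CPM), Sftpb (16.05 CPM), and Sftpa1 (14.5 CPM).

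Ager (ENSMUSG00000015452, chromosome 17, 34597862 to 34600936) encodes the receptor for advanced glycation end products and is among the most abundant transcripts of type 1 cells. It was measured at 5.30, 32.8, 17.3, and 23.8 CPM in aged sham libraries 1 to 4 and at 1.86, 2.74, 1.72, 2.25, and 1.34 CPM in aged bleo libraries 1 to 5. Aged sham 1 stood well below the other aged sham libraries, and the aged bleo libraries were close to each other. Ager fell by 3.32 on the log2 scale (SE 0.46, FDR = 0.000999), from a mean of 19.8 ± 11.6 CPM (SD, n = 4) to 1.98 ± 0.535 CPM (SD, n = 5). It remained past the thresholds when each library was left out in turn, with log2 fold changes from -3.63 to -2.96.

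Mal2 (ENSMUSG00000024479, chromosome 15, 54571366 to 54602846) encodes a membrane protein of vesicle transport in polarized epithelium. Its level was 0.905, 4.14, 2.78, and 4.60 CPM in aged sham libraries 1 to 4 and 0.260, 0.533, 0.0747, 0.368, and 0.201 CPM in aged bleo libraries 1 to 5. Aged sham 1 was again the lowest of its group. Aged bleo 3 held 4 counts of Mal2, close to the 3 counts that a count of 0 allows, and the other aged bleo libraries held 11 to 30. Mal2 fell by 3.41 on the log2 scale (SE 0.58, FDR = 0.0027).

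Hopx (ENSMUSG00000059325, chromosome 5, 77086988 to 77115121) encodes a homeodomain-only protein that lacks DNA binding of its own and is expressed in type 1 cells. Aged sham libraries 1 to 4 held 4.70, 9.75, 6.45, and 8.25 CPM, and aged bleo libraries 1 to 5 held 2.46, 2.65, 2.20, 4.61, and 2.38 CPM. Aged bleo 4 nearly reached the level of aged sham 1. Hopx fell by 1.35 on the log2 scale (SE 0.28, FDR = 0.0064). An antisense gene, Hopxos, overlaps Hopx, and no source used here says if strand was used in the counting. Hopxos was also lower in aged bleo libraries, at 2.26 ± 0.610 CPM (SD, n = 4) against 0.933 ± 0.227 CPM (SD, n = 5), so that reads of the 2 genes may not be separated.

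Cldn18 (ENSMUSG00000032473, chromosome 9, 99689461 to 99717267) encodes claudin-18, a tight junction protein of both alveolar cell types. Its level was 1.91, 7.70, 6.45, and 6.05 CPM in aged sham libraries 1 to 4 and 0.670, 1.35, 0.672, 1.17, and 0.714 CPM in aged bleo libraries 1 to 5. The order of the aged sham libraries put aged sham 1 at the bottom and aged sham 2 at the top, as for Ager and Hopx. Cldn18 fell by 2.59 on the log2 scale (SE 0.40, FDR = 0.0019).

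Aqp5 (ENSMUSG00000044217, chromosome 15, 99590849 to 99594829), which encodes the water channel of the type 1 cell surface, did not show this pattern. It was measured at 0.953, 3.66, 2.04, and 2.16 CPM in aged sham libraries 1 to 4 and at 3.83, 3.15, 2.91, 4.46, and 3.15 CPM in aged bleo libraries 1 to 5. Aged sham 2 lay within the range of the aged bleo libraries, and the other 3 aged sham libraries lay below it. The log2 fold change was 0.67 (SE 0.33, FDR = 0.146), which did not pass the thresholds, and without aged sham 2 it was 1.03 (FDR = 0.0382), which did. Per length, Aqp5 stood at 0.117 to 0.231 of the Ager level in aged sham libraries and at 1.48 to 3.03 of it in aged bleo libraries, so the ratio of these type 1 transcripts did not overlap between the groups.

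The surfactant transcripts varied between libraries in another way. Sftpc (ENSMUSG00000022097, chromosome 14, 70520941 to 70524081) encodes surfactant protein C, a hydrophobic surfactant protein made in the adult lung by type 2 cells. Its level was 3.18, 3.08, 57.9, and 5.47 CPM in aged sham libraries 1 to 4 and 7.65, 29.5, 28.8, 18.0, and 10.0 CPM in aged bleo libraries 1 to 5. Aged sham 3 was the highest of the 9 libraries, 10.6 times the next aged sham library, and the other 3 aged sham libraries were below every aged bleo library. The log2 fold change was 0.11 (SE 0.90, FDR = 0.935) with all libraries and 2.27 (SE 0.51, FDR = 0.0177) without aged sham 3.

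Sftpb (ENSMUSG00000056370, chromosome 6, 72304610 to 72314371) encodes surfactant protein B, which spreads surfactant lipids at the air surface and is made by type 2 cells and by some airway cells. It was measured at 1.15, 0.924, 16.05, and 1.57 CPM in aged sham libraries 1 to 4 and at 2.20, 10.6, 8.52, 4.86, and 3.94 CPM in aged bleo libraries 1 to 5. Sftpa1 (ENSMUSG00000021789, chromosome 14, 41131782 to 41136452), which encodes the collectin surfactant protein A, was measured at 1.26, 0.770, 14.5, and 1.15 CPM and at 2.21, 12.7, 7.49, 3.62, and 4.27 CPM in the same order. For both genes aged sham 3 was again the highest library and the other 3 aged sham libraries were the lowest of the 9. The log2 fold changes were 0.29 (SE 0.87, FDR = 0.821) for Sftpb and 0.46 (SE 0.90, FDR = 0.722) for Sftpa1. Without aged sham 3 they were 2.31 (FDR = 0.0179) and 2.52 (FDR = 0.0190), past the thresholds for both. The labels give nothing that sets aged sham 3 apart, and why it differed was not tested.

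**Figure D2:**
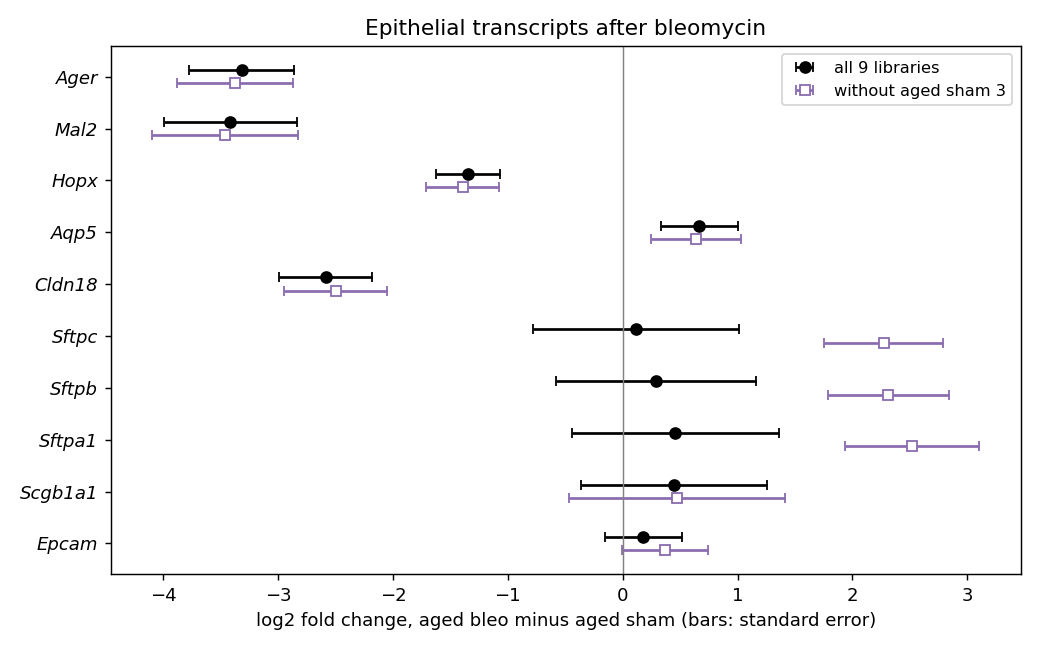
Log2 fold change of each transcript, aged bleo minus aged sham (horizontal axis), with the standard error as bars, over all 9 libraries (filled circles) and without aged sham 3 (open squares). Leaving out aged sham 3 moved Sftpc from 0.11 to 2.27 and left Ager, Mal2, Hopx, and Cldn18 below 0.

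Scgb1a1 (ENSMUSG00000024653, chromosome 19, 9083636 to 9087958) encodes the main secretory protein of airway club cells. Its level was 0.856, 1.33, 1.75, and 2.78 CPM in aged sham libraries 1 to 4 and 0.651, 0.942, 0.579, 1.28, and 7.96 CPM in aged bleo libraries 1 to 5. Aged bleo 5 was the highest of all libraries, and the other 4 aged bleo libraries lay below the mean of the aged sham libraries (1.68 CPM). The log2 fold change was 0.44 (SE 0.81, FDR = 0.700), and without aged bleo 5 it was -0.95 (FDR = 0.112), so neither its direction nor a change could be read from these libraries. The surfactant transcripts of aged bleo 5 were within the range of the other aged bleo libraries.

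Epcam (ENSMUSG00000045394, chromosome 17, 87635979 to 87651106), which encodes the adhesion molecule used to remove epithelial cells, was low throughout. It was measured at 0.485, 0.565, 0.798, and 0.524 CPM in aged sham libraries 1 to 4 and at 0.409, 0.640, 0.448, 1.20, and 0.641 CPM in aged bleo libraries 1 to 5. Aged bleo 4 was the highest, and the groups overlapped. The log2 fold change was 0.18 (SE 0.33, FDR = 0.704). Since the sort selected against this antigen, the level of Epcam is not a measure of how many epithelial cells the lungs held.

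Ranked per length by median FPKM, the order of the 10 transcripts differed between the groups. In aged sham libraries Ager was the first (median 3.99 FPKM, range 1.04 to 6.51), followed by Sftpc (2.22 FPKM), Hopx (2.02 FPKM), and Scgb1a1 (1.37 FPKM). Cldn18 (0.585 FPKM), Mal2 (0.530 FPKM), Aqp5 (0.525 FPKM), Sftpb (0.286 FPKM), Sftpa1 (0.175 FPKM), and Epcam (0.112 FPKM) came after them. Only Scgb1a1 and Cldn18 were neighbours in this order whose ranges did not overlap.

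In aged bleo libraries Sftpc was the first (median 10.1 FPKM, range 4.11 to 15.4), and its range did not overlap that of the next, Sftpb (1.11 FPKM). Scgb1a1 (0.829 FPKM), Aqp5 (0.817 FPKM), Hopx (0.700 FPKM), and Sftpa1 (0.645 FPKM) followed with overlapping ranges, and Ager was the seventh with 0.376 FPKM. Epcam (0.132 FPKM), Cldn18 (0.0693 FPKM), and Mal2 (0.0406 FPKM) were the last, and Ager and Epcam were the only other neighbours without overlap.

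The type 1 and type 2 transcripts were compared directly within each library on the pair Ager and Sftpc. Both genes were chosen with earlier results of these data known, and Ager alone already separated the groups. The log2 CPM of Ager minus that of Sftpc, not scaled to gene length, was 0.73, 3.40, -1.74, and 2.11 in aged sham libraries 1 to 4. It was -2.02, -3.42, -4.04, -2.98, and -2.87 in aged bleo libraries 1 to 5. All aged bleo libraries lay below all aged sham libraries, with aged sham 3 the closest to them. The means were 1.13 ± 2.20 (SD, n = 4) and -3.07 ± 0.74 (SD, n = 5), and the difference of -4.19 had p = 0.00794 in a two-sided exact permutation test, the smallest p that 4 against 5 libraries allow. It held its direction when each library was left out, with differences from -5.15 to -3.43. With Aqp5 in place of Ager the difference was -0.34 (p = 0.786, two-sided exact permutation test), so the result depended on the choice of the type 1 gene. Per length, Ager stood at 0.626, 4.00, 0.113, and 1.63 of the Sftpc level in aged sham libraries 1 to 4. In aged bleo libraries it stood at 0.0224 to 0.0914 of it. Aged sham 1 thus held more Ager than Sftpc in CPM and less per length.

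Over the listed genes of each type, the summed FPKM of the 4 type 1 transcripts ranged from 2.71 to 10.8 in aged sham and from 1.68 to 3.10 in aged bleo libraries. The sum of the 3 type 2 transcripts ranged from 1.94 to 36.1 and from 4.92 to 19.5. The ratio of the sums was 1.30, 5.57, 0.171, and 2.44 in aged sham libraries 1 to 4 and 0.428, 0.110, 0.0943, 0.264, and 0.261 in aged bleo libraries 1 to 5. Type 1 transcripts thus exceeded type 2 transcripts in 3 of 4 aged sham libraries and in 0 of 5 aged bleo libraries, and aged sham 3 lay within the aged bleo range.

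**Figure D3:**
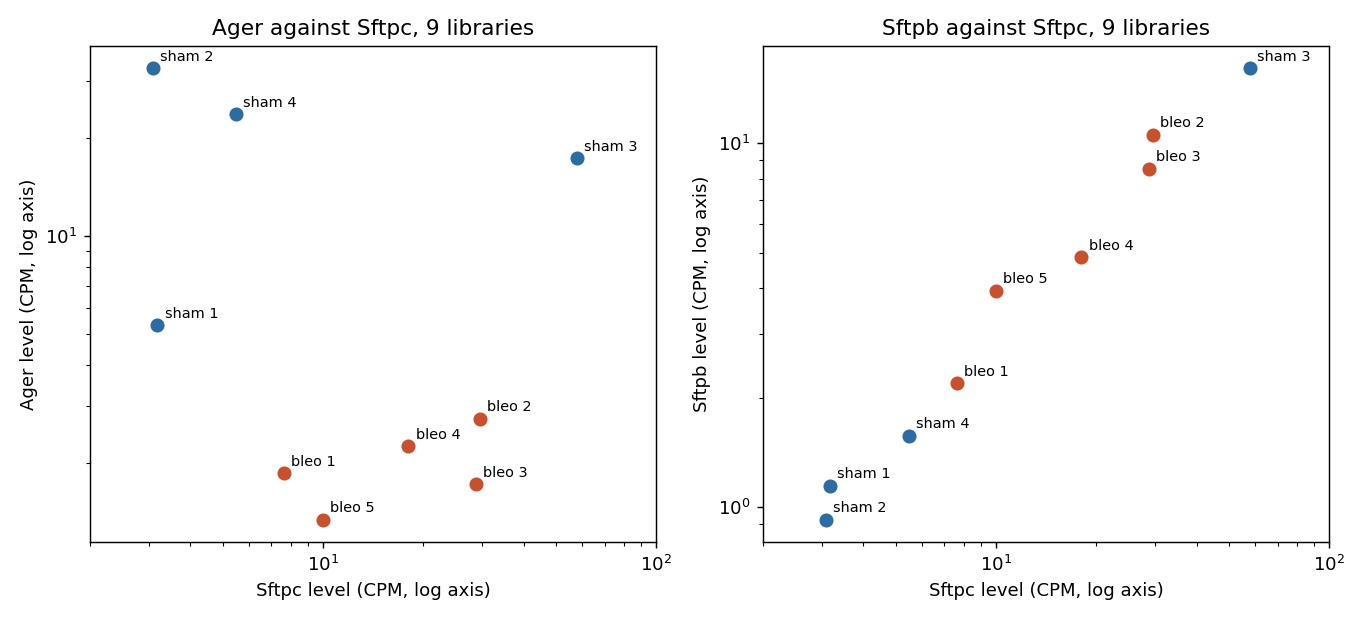
Level of Ager (left) and Sftpb (right) against that of Sftpc in the 9 libraries (CPM, log axes), with aged sham libraries in blue and aged bleo libraries in red. Ager was higher in every aged sham library than in any aged bleo library, and Sftpb followed Sftpc over all 9 libraries (r = 0.992).

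Sftpc, Sftpb, and Sftpa1 varied together between libraries. Over the 9 libraries, log2 CPM of Sftpb correlated with that of Sftpc with Pearson's r = 0.992 (two-sided exact permutation p = 2.76e-06, the smallest that 9 libraries can give) and Spearman's rho = 1.0 (p = 5.51e-06). For Sftpa1, r was 0.961 (exact permutation p = 0.000130) and rho was 0.967 (p = 0.000165). These were 2 of 9 relations with Sftpc that were computed, and the adjusted p-values for r were 2.48e-05 and 0.000583.

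The relation also held within treatments, with r = 0.990 for Sftpb (adjusted exact permutation p = 0.0031) and r = 0.955 for Sftpa1 (adjusted exact permutation p = 0.025). With aged sham 2 and aged sham 3 taken out, whose Sftpc levels were farthest from the median, r was 0.985 and 0.930. Per length, Sftpc stood at 6.22 to 9.08 times the Sftpb level in all 9 libraries, while the Sftpc level itself ranged 18.8-fold among aged sham libraries.

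None of the other 7 relations passed an adjusted p of 0.05. Over the 9 libraries r with Sftpc was -0.29 for Ager, -0.32 for Mal2, -0.37 for Hopx, -0.20 for Cldn18, 0.24 for Aqp5, -0.09 for Scgb1a1, and 0.43 for Epcam, with adjusted exact permutation p-values from 0.651 to 0.830. A p-value above the threshold with 9 libraries does not show that these genes were unrelated to Sftpc.

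Among the 16877 genes tested, the 5 whose log2 CPM was most like that of Sftpc over the 9 libraries were Sftpb (r = 0.992), Sftpa1 (r = 0.961), Sftpd (r = 0.930), Lamp3 (r = 0.930), and Hc (r = 0.928). Sftpd encodes surfactant protein D and Lamp3 a membrane protein of lamellar bodies, the organelles that store surfactant. The 5 most like Ager were Cldn18 (r = 0.987), Scnn1g (r = 0.982), Ccni (r = 0.978), Nipal3 (r = 0.973), and Cds1 (r = 0.973). Scnn1g encodes a subunit of the epithelial sodium channel, which clears fluid from the airspace. These likenesses are descriptions over 9 libraries that differ in treatment.

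The 250 bases before the start sites of Sftpb and Sftpa1 are shown beside those of Ager, from the RefSeq annotation of GRCm38.p6. RefSeq entries were matched for 7 of the 10 genes, with 9 start sites. Sftpc, Mal2, and Scgb1a1 had no matched entry. Any part of promoter sequence in the variation between libraries was not tested. The windows were searched on both strands for CTCAAG, a core sequence bound by NKX2-1, the transcription factor of lung epithelium, and for CATTCC, the core sequence bound by TEAD factors. Matches are printed in capitals, and each sequence runs 5′ to 3′ on the strand of its gene.
Sftpb, chr6:72304360-72304609, plus strand: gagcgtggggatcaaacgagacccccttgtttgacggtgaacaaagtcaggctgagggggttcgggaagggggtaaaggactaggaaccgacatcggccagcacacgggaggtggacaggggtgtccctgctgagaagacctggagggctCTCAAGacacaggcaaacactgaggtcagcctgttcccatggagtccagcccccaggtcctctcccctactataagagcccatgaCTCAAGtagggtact
Sftpa1, chr14:41131538-41131787, plus strand: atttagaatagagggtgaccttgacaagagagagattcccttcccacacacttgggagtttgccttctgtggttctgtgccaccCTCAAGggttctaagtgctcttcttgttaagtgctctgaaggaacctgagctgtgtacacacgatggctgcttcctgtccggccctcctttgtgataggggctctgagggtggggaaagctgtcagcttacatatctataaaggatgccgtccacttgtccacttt
Ager, chr17:34597600-34597849, plus strand: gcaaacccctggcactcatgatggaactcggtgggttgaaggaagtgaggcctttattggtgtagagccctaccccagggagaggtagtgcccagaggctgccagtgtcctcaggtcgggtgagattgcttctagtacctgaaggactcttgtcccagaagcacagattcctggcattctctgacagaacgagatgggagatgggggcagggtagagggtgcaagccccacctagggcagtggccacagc

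The Sftpb window held CTCAAG at 100 and at 15 bases before the start and the Sftpa1 window at 166 bases before it. The windows of Ager, Aqp5, Cldn18, and Epcam held none, and 1 of the start sites of Hopx had it in reverse complement at 112 bases before the start. Of the 32851 mouse windows of this length, 13.3% held CTCAAG and 12.6% held CATTCC. The TEAD core sequence was not found in the 9 windows of the 7 matched genes. A match describes letters in the window and not a bound site.

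Other genes associated with the same cell types were set beside these values, from lists that were drawn up with earlier results of these data known. For every list, the share over all 16877 genes tested was 11.5% lower and 12.3% higher. When 1 library was left out, 1639 to 2283 genes were called lower and 1876 to 2314 higher, of 16730 to 16916 tested. Of 12 other type 1 genes, all tested, 7 were lower and 1 was higher in aged bleo libraries, and the median log2 fold change was -0.93. When 1 library was left out, 6 to 8 of them were lower. At an FDR of 0.05 and a fold change of 2, 6 were lower, beside 934 of all genes tested. With limma-trend on log2(FPKM + 1) only Spock2 was lower, beside 825 of all genes tested. Scnn1g fell by 5.33 on the log2 scale (SE 0.72), from 24 to 151 counts per library to 0 to 5 counts. Akap5, which encodes an anchoring protein of protein kinase A, fell by 1.88 (SE 0.30), and Spock2, which encodes a proteoglycan of the extracellular matrix, fell by 1.86 (SE 0.31). Aged sham 1 was the lowest aged sham library in each of Scnn1g, Akap5, and Spock2, as in Ager. Spock2 was at 146.0, 189.6, 174.5, and 184.3 CPM in aged sham libraries 1 to 4, where Ager was at 5.30 to 32.8 CPM. The cells that the Spock2 transcripts came from were not tested.

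Igfbp2, which encodes an insulin-like growth factor binding protein, was the gene that rose, from 7.82 ± 0.394 CPM (SD, n = 4) to 26.3 ± 9.41 CPM (SD, n = 5). Emp2 and Pdpn, surface proteins of type 1 cells that other lung cells also make, had log2 fold changes of 0.12 (SE 0.11, FDR = 0.411) and -0.01 (SE 0.09, FDR = 0.961). These 3 genes were named after their values were seen.

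Of 12 other type 2 genes, 11 were tested, with 1 higher, 1 lower, and a median log2 fold change of 0.21. Without aged sham 3 the list had 6 higher and 1 lower, with a median of 1.31, when 11.4% of all genes tested were called higher. Chil1, which encodes a chitinase-like protein also made by macrophages, rose by 1.29 (SE 0.34), and Abca3, which encodes the lipid transporter of lamellar bodies, fell by 0.75 on the log2 scale (SE 0.20). The other 5 genes that were higher without aged sham 3 were Cxcl15, Hc, Lamp3, Sftpd, and Slc34a2.

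Aged sham 3 did not stand out in every gene listed for type 2 cells. Against the highest of the other aged sham libraries it held 23.1 times the level of Sftpd, 15.95 times that of Slc34a2, a phosphate transporter, 14.9 times that of Lamp3, and 11.0 times that of Cxcl15, a lung chemokine. The same ratio was 10.2 for Sftpb and 11.5 for Sftpa1. For Abca3 it was 0.967, for the phospholipid enzyme gene Lpcat1 1.08, for the protease gene Napsa 1.03, and for the transcription factor gene Etv5 0.696. For the 4 type 1 genes it was 0.529 to 0.661, for Cldn18 0.837, and for Epcam 1.41. In CPM, aged sham libraries held 108.8 to 115.7 of Abca3, 30.6 to 35.4 of Lpcat1, and 19.1 to 27.5 of Etv5. Napsa was at 1.69 to 4.48 CPM and Sftpc at 3.08 to 57.9 CPM in the same libraries. The cells that these transcripts came from were not tested.

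**Figure D4:**
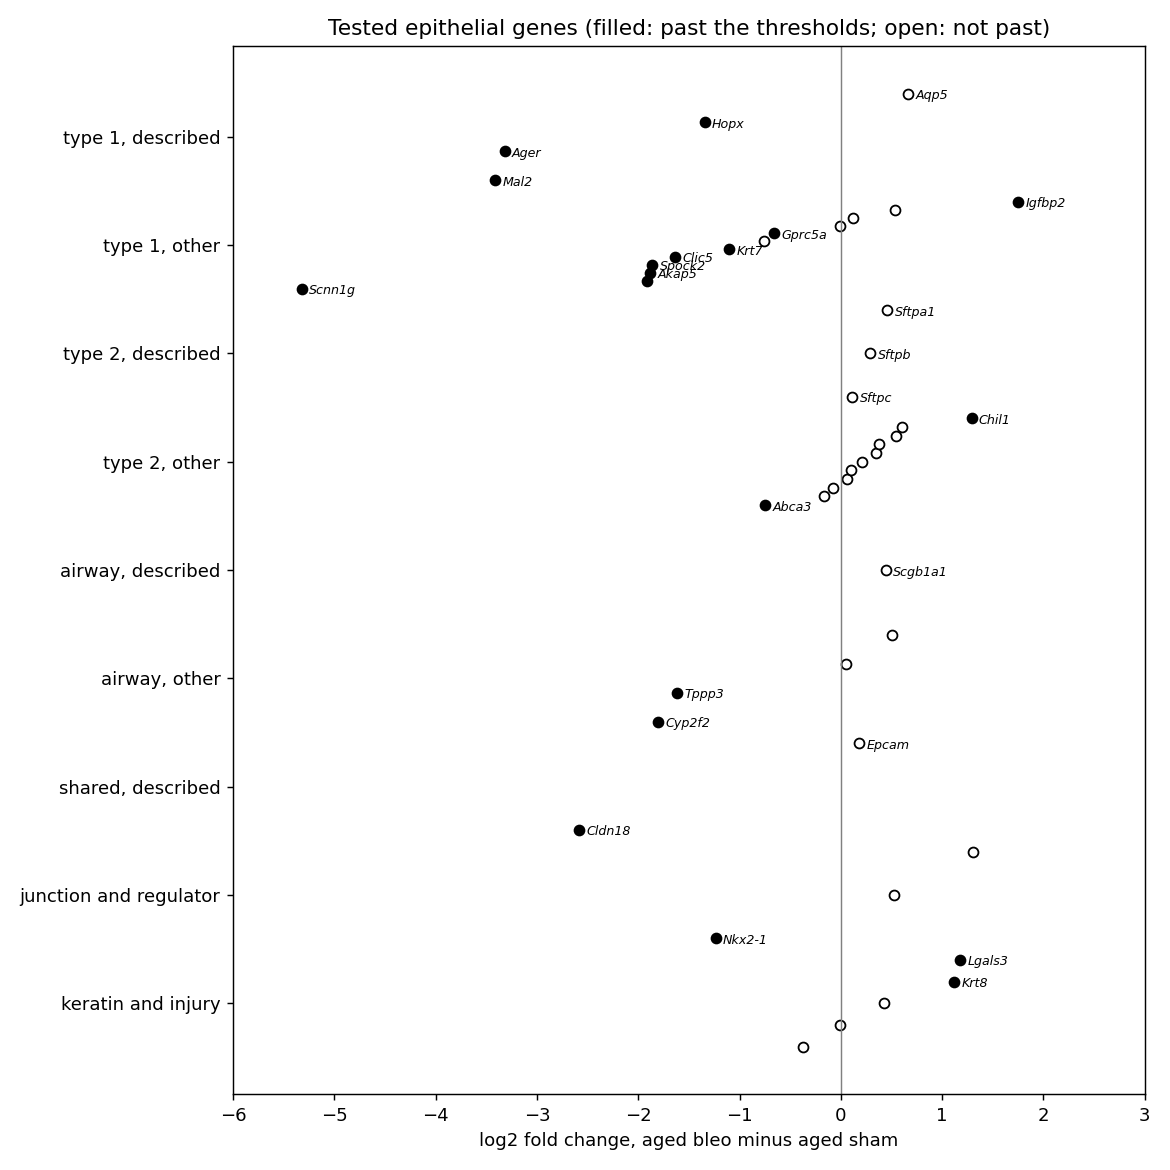
Log2 fold change, aged bleo minus aged sham (horizontal axis), of the tested genes of each epithelial list, with the 10 described genes in their own rows and genes past the thresholds filled. Of the 12 other type 1 genes 7 lay past the thresholds below 0, and of the 11 other type 2 genes tested 1 did. Over all genes tested 11.5% did.

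Of 10 airway secretory and ciliated genes 4 were tested, and 2 were lower. Cyp2f2, a cytochrome P450 of club cells, fell by 1.81 on the log2 scale (SE 0.34), and Tppp3, a tubulin-binding protein of ciliated cells that other cells also make, fell by 1.62 (SE 0.26). Scgb1a1, also associated with club cells, was not called in either direction. In CPM, aged sham libraries 1 to 4 held 4.44, 11.1, 7.75, and 7.72 of Cyp2f2 and 0.856, 1.33, 1.75, and 2.78 of Scgb1a1. Scgb3a2, of the same list, had 0 to 7 counts per library. If Cyp2f2 and Scgb1a1 came from the same cells was not tested. Of 13 epithelial junction and transcription factor genes only 3 had enough counts to be tested, and Nkx2-1 was lower, by 1.24 on the log2 scale (SE 0.44, FDR = 0.0549). Its call was lost without aged sham 2 or 4 and without aged bleo 3 or 5, and limma-trend did not make it.

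Of 5 keratin and alveolar injury genes 2 were higher in aged bleo libraries. Krt8, a keratin of simple epithelium that is raised in regenerating alveolar cells, rose from 1.49 ± 0.271 CPM (SD, n = 4) to 3.25 ± 0.769 CPM (SD, n = 5), a log2 fold change of 1.12 (SE 0.21, FDR = 0.0046). Lgals3, which encodes galectin-3 and is also made by macrophages and fibroblasts, rose by 1.18 (SE 0.22, FDR = 0.0040). The other 3 did not pass the thresholds, with log2 fold changes of 0.42 for Krt18 (SE 0.19, FDR = 0.116), -0.01 for Krt19 (SE 0.30, FDR = 0.987), and -0.37 for Sfn (SE 0.21, FDR = 0.199).

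Markers of other cells that the sort could hold were set beside these results. Of 6 mesothelial genes none was called or had an unadjusted p under 0.05 in edgeR, and 1, Msln, was called higher by DESeq2 and by limma-trend on log2(FPKM + 0.1). Without aged sham 1 the count was 2 (Msln and Upk1b) and without aged bleo 4 it was 1 (Msln). Their summed level was 23.9 to 75.9 CPM in aged sham and 30.7 to 115 CPM in aged bleo libraries. Of 6 leukocyte genes 1 was higher, Laptm5, with an FDR of 0.0931, and the sums were 99.6 to 376 and 105 to 577 CPM. That call was lost without aged sham 1, 2, or 3 and without aged bleo 3, 4, or 5, and without aged bleo 4 the list had 0 higher and 2 lower (Coro1a and Ptprc). Of 7 alveolar macrophage genes 4 were higher, with log2 fold changes of 2.04 for Ear2 (SE 0.29), 1.79 for Chil3 (SE 0.35), 1.61 for Adgre1 (SE 0.53), and 1.33 for Mrc1 (SE 0.41). Adgre1 lost its call without aged sham 3 (FDR = 0.108). Marco (0.96, FDR = 0.340), Siglecf (0.84, FDR = 0.268), and Itgax (0.92, FDR = 0.137) were not called, though DESeq2 called Itgax higher. The sums of this list were 55.2 to 102 and 136 to 377 CPM, without overlap. Chil3 was the largest part of them, at 18.8 to 36.6 and 56.2 to 179 CPM. Of single genes only Chil3 and Ear2 did not overlap between the groups. Of 6 endothelial genes 2 were higher (Egfl7 and Kdr) and 1 lower (Tek), and the sums were 159.8 to 194 and 24.4 to 66.8 CPM. Tek, which encodes an angiopoietin receptor, made up most of these sums, and the other 5 genes summed to 10.6 to 14.8 CPM in aged sham and 11.1 to 18.4 CPM in aged bleo libraries, with overlap. Egfl7 was called in 7 and Kdr in 4 of the 9 fits that left out 1 library, and neither was called without aged sham 2. Neither passed an FDR of 0.05 with a fold change of 2. Of 6 fibroblast genes Col1a1 (2.33, SE 0.23), Col1a2 (1.59, SE 0.18), and Fn1 (1.02, SE 0.26) were higher and Dcn (-1.54, SE 0.32) was lower on the log2 scale. No gene of these 5 lists was at 0 in any library.

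Aged bleo 4 held the highest sums of leukocyte and macrophage genes and also the highest Epcam, Hopx, and Aqp5 levels among aged bleo libraries. Aged sham 3, with the highest surfactant transcripts, held the lowest sums of mesothelial and macrophage genes of the aged sham libraries. Aged bleo 3 held the highest mesothelial sum (115 CPM) and the highest Krt8 (4.50 CPM) and Krt19 (12.0 CPM) levels of all libraries. The part of these cells in the epithelial levels was not tested.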

How the data were processed

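The authors deposited 1 table with raw read counts (whole numbers, not normalized) and FPKM values for 43346 genes. Each FPKM value was divided by the authors by gene length and by a library total 2.27 to 2.42 times the sum of the counts. The submitters' processing notes name STAR 2.5.2b, featureCounts, and mm10, and 78.8% of shared identifiers have the same position in GENCODE M21.

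Libraries were grouped by their titles, and all were used. The test took genes averaging 25 counts or more and was edgeR 4.0.16 (R 4.3.3, glmQLFit and glmQLFTest, TMM, no covariate). FDR is the Benjamini-Hochberg adjusted p-value over all genes tested, and genes were called where it was under 0.10 with a change of over 1.5-fold. The study's moderated test was replaced by this one because the files hold counts. A prior count of 2 was added for log2 CPM. The 10 genes and all lists were chosen with earlier results of these data known. Of each list the called genes of largest fold change (up to 4) were named, apart from 1 gene that is not reported here, and other names were chosen after their values were seen. Likeness of genes is Pearson's r of log2 CPM.

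Alternatives were other tests (DESeq2 1.42.0, and limma 3.58.1 as limma-trend on log2 CPM, log2(FPKM + 0.1), or log2(FPKM + 1)), other scaling (RLE factors or none beyond library size), other filters (none, or 10 counts in all libraries), robust dispersions, stricter thresholds (0.05 and 2), omission of each library, and the replicate number as a block. No libraries of a group were duplicates (chi-square per degree of freedom 26.5 to 378 over 16 pairs). The fits were tested on simulated counts. Limits from counts cover counting error only. Promoter sequences are from RefSeq (GRCm38.p6), and those of Sftpc, Mal2, and Scgb1a1 were not used here.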

Additional observations from a re-analysis of the deposited data

Results flagged for a closer look

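In 5 of the 22 groups of values examined, the highest library stood apart from the others of its group by the 95% limit of Dixon's test, which chance alone exceeds in about 5% of groups. Aged sham 3 was flagged for Sftpc (57.9 CPM, next 5.47), Sftpb (16.05 CPM, next 1.57), and Sftpa1 (14.5 CPM, next 1.26), which vary together and are not independent flags. Aged bleo 5 was flagged for Scgb1a1 (7.96 CPM, next 1.28) and aged bleo 4 for Hopx (4.61 CPM, next 2.65). The cause of these values was not tested.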

How the results depend on the processing

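Ager, Hopx, and Cldn18 kept their direction under every alternative, and so did Mal2, which had too few counts to be tested at 10 counts in every library. The 4 calls held in all 9 fits that left out 1 library. The number of genes called was 4022, and 1785 with limma-trend on log2(FPKM + 1) and 2158 with stricter thresholds. With limma-trend on log2(FPKM + 1), 2 of the 10 genes were called lower rather than 4, beside 825 of all 16877 genes tested. The number called higher was 0, and 1 (Aqp5) with limma-trend, both from log2 CPM and from log2(FPKM + 0.1). It ranged from 0 to 3 when 1 library was left out, with 1 (Aqp5) without aged sham 2 and 3 without aged sham 3.

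Leaving out 1 library moved the log2 fold change of Sftpc over -0.24 to 2.27, Sftpb over -0.057 to 2.31, Sftpa1 over -0.0046 to 2.52, Scgb1a1 over -0.95 to 0.79, and Epcam over -0.15 to 0.37. Scgb1a1 had a log2 fold change of -0.23 in limma-trend with log2 CPM, -0.17 with log2(FPKM + 0.1), and -0.0014 with log2(FPKM + 1). With the replicate number as a block, which leaves out the unpaired aged bleo 5, it was -0.90 (FDR = 0.0620), past the thresholds, and 5 of the 10 genes were called lower. The block gave 3536 calls over the 16877 genes tested, 1714 of them lower. Same-numbered libraries deviated together only weakly (r -0.13 to 0.33 over 4 pairs, 1 of them highest with its own number). The labels do not say if the numbers pair the libraries, and 4 pairs are too few to decide it. The Ager minus Sftpc difference was -4.24 within replicate numbers (replicate block, exact permutation p = 0.125, the smallest that 4 pairs allow), and -0.34 with Aqp5 in place of Ager. Within treatments r with Sftpc changed sign to 0.18 for Ager, 0.083 for Mal2, -0.018 for Aqp5, and 0.38 for Cldn18, none past the threshold. Apart from the construction of each setting, the cause was not tested. At these depths the 3-count limit is near the lowest values of Mal2 and Scnn1g in aged bleo libraries, so their folds are less certain than that of Ager.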

Other observations

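The following airway and epithelial genes were chosen after their values were seen, and all but Trp63 and Cdh1 had too few counts to be tested with the filter. Krt5, a keratin of airway basal cells, had 0 counts in all 4 aged sham libraries and 2 to 10 counts in the 5 aged bleo libraries, around the 3 counts that a count of 0 allows. Trp63, a transcription factor of basal cells, had 67 to 106 counts in aged sham and 109 to 139 counts in aged bleo libraries, with a log2 fold change of 0.51 (SE 0.17, FDR = 0.0429) that was below the fold threshold. Ccdc153, a gene of ciliated cells, had 0 to 3 and 2 to 12 counts. Ocln, which encodes the tight junction protein occludin, had 10 to 37 counts in aged sham and 4 to 12 counts in aged bleo libraries, and Ap1m2, a sorting adaptor subunit of polarized epithelium, had 5 to 12 and 0 to 3 counts. With no filter on low counts, Krt5 and Ccdc153 were called higher and Ocln and Ap1m2 lower in aged bleo libraries. That fit called 2715 genes higher and 2263 lower of 30563 tested. Without aged sham 2, Trp63 was called higher, beside 1981 of all 16875 genes tested.

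Cdh1, which encodes E-cadherin, had a log2 fold change of 1.30 (SE 0.62, FDR = 0.129) in edgeR, which did not pass the thresholds. It was called higher by DESeq2, with the replicate number as a block, and without aged bleo 1. It was highest in aged bleo 4 (11.7 CPM) and aged bleo 3 (8.39 CPM), and its other aged bleo values (1.34 to 3.45 CPM) overlapped those of the aged sham libraries (0.888 to 2.98 CPM).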
